A study of Mus musculus with 28 samples.

Results

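The cytosolic ribosomal protein genes were followed across 28 arrays of sorted mouse T cells. A gene was taken in when a probe set carried its symbol alone and the symbol began with Rpl or Rps and a digit, or was Rplp0, Rplp1, Rplp2 or Rpsa. S6 kinase genes and pseudogenes were left out. This gave 48 of the 12393 genes on the array, 26 of them with large subunit names and 22 with small subunit names. They comprise 42 genes of the standard ribosome and the paralogues or like-named genes Rpl3l, Rpl22l1, Rpl39l, Rpl7l1, Rps27l and Rps4l. Together they have 100 probe sets, and the brightest probe set, by its mean over the 28 arrays, stands for each gene. A further 102 ribosomal probe sets carry several symbols, and 30 ribosomal protein genes, Rplp1, Rpl5, Rpl36a and Rpl36al among them, were found only there, so they are not members.

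Ribosomal proteins assemble with ribosomal RNA into the small subunit, which reads the mRNA, and the large subunit, which joins amino acids. Their mRNAs are among the most abundant in a T cell, and most begin with a C and a run of pyrimidines, the oligopyrimidine start through which mTOR and the RNA-binding protein LARP1 control their translation and stability. A T cell that leaves rest enlarges its ribosome pool before it divides. A few ribosomal proteins also have known roles outside the ribosome, such as RPL11 and RPL5, which hold MDM2 and so stabilise p53.

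All cells were from C57BL/6N mice with a transgenic T cell receptor, AND on CD4 cells and OT1 on CD8 cells, so lineage and receptor cannot be told apart. On day 2 there were 4 groups of 3 arrays each, CD4 and CD8 cells cultured in IL7 (5 ng/ml) without antibody, called unstimulated, or with plate-bound antibodies to CD3 and CD28 (10 µg/ml each in the coating solution), called stimulated. On day 5 the cells had spent 3 further days in host mice. Unstimulated cells (2 CD4 and 3 CD8 arrays) and transient cells, which had been stimulated first (2 CD4 and 3 CD8 arrays), came from hosts without the antigen. Continuous cells (3 CD4 and 3 CD8 arrays) had been stimulated and then placed in hosts that express antigen (dtg-O or dtg-M). Day 5 cells were sorted from spleen and subcutaneous lymph nodes. The RNA was amplified before labelling, and the replicates are described as independent biological ones.

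Values are log2 signals per probe set, and a gene was called when its limma p, adjusted over all 12393 genes, was below 0.05. The third arrays labelled unstimulated CD4 and unstimulated CD8 on day 2 stood apart. Their median over genes was 5.30 on both arrays beside 6.86 to 7.03 on the other 26, and the CD8 genes went against both labels, with Cd8a at 9.88 on the CD4-labelled array and at 5.78 on the CD8-labelled one. Day 2 results of the ribosomal protein genes are therefore given with and without these arrays, and those of other gene lists with them only. The signal of the beta-actin control probe sets at the 3′ end minus that at the 5′ end, a measure that rises with shortened RNA or product, also differed between groups. It was 2.28 to 4.30 on unstimulated and 1.11 to 1.69 on stimulated arrays of day 2. On day 5 it was 2.42 to 2.73 in CD4 transient and 1.92 to 2.44 in CD8 unstimulated cells, and 0.31 to 1.02 in the other 4 groups. The T cell markers were well detected on every array (mean of the list 9.17 or more). The mean of the CD4 helper markers Cd4 and Zbtb7b was 7.76 and 7.87 on the CD4 transient arrays. It was 9.04 to 9.50 on the other CD4 and 6.78 to 7.52 on the CD8 arrays of day 5. The mean of Cd8a and Cd8b1 was 5.81 and 5.95 on the CD4 transient arrays, beside 12.03 to 12.88 on the CD8 arrays of day 5. The mean of the B cell markers was 9.36 and 7.68 on the CD4 transient arrays and 4.37 to 7.46 elsewhere, and that of the myeloid markers ranged from 4.02 to 9.80.

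**Figure D1:**
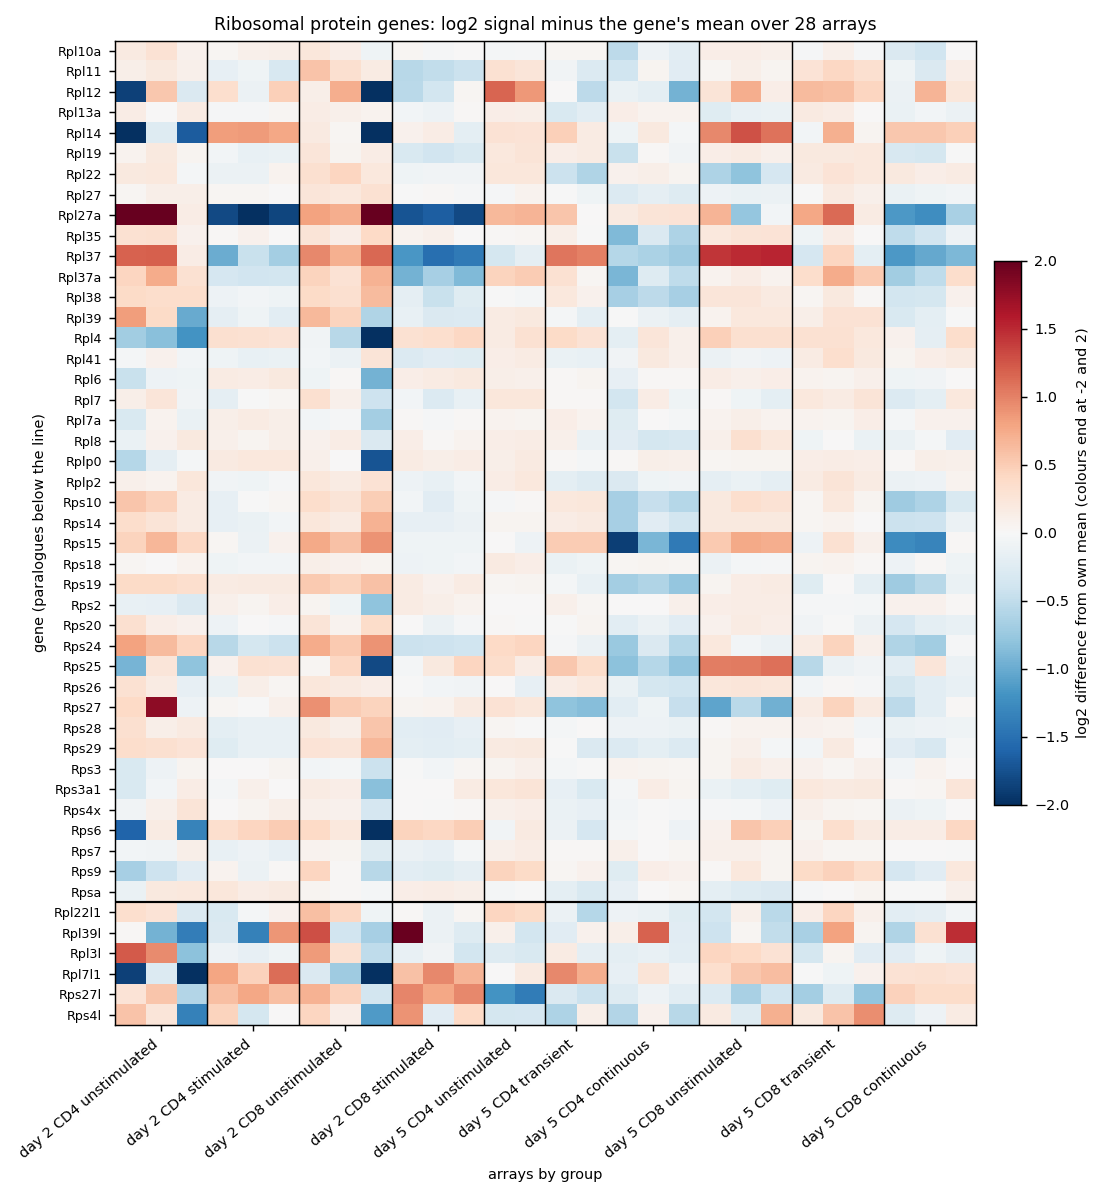
Log2 signal of each of the 48 genes on each of the 28 arrays, as the difference from that gene's own mean over all arrays (colour, ending at -2 and 2), with arrays grouped by condition and the 6 paralogues or like-named genes below the line. The CD4 continuous arrays and the first and second CD8 continuous arrays are blue over many genes, Rps15 among them, while Rps27l is red in CD8 continuous cells.

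Start sites were read from RefSeq (GRCm38.p6), where 42 of the 48 genes had an annotated start. A C followed directly by at least 4 bases that are each C or T, beginning exactly at the start on the gene's own strand, was found in 8 of these 42 genes (19.0%), against 813 of 27025 genes in all (3.01%) and 0 of 69 mitochondrial ribosomal protein genes. No other position and no opposite strand was searched. The 8 genes are Rpl14, Rpl35, Rpl38, Rplp2, Rps10, Rps18, Rps27 and Rps6. Shown are 5 of these with the run in capitals, and Rps27l as the paralogue of Rps27 without it. Each line has 10 bases before and 20 bases from the annotated start.
Rps10 (chr17:27635225-27635254, minus strand): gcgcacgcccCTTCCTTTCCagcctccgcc
Rpl35 (chr2:39005112-39005141, minus strand): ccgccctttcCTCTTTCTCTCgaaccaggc
Rpl38 (chr11:114668570-114668599, plus strand): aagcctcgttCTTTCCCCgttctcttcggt
Rplp2 (chr7:141447641-141447670, plus strand): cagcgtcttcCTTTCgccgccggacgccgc
Rps27 (chr3:90213629-90213658, minus strand): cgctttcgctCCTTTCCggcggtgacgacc
Rps27l (chr9:66946076-66946105, plus strand): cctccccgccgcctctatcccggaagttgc
A match describes these letters only, and a start annotated a few bases off would leave a run uncounted.

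CD4 cells that met antigen continuously were compared with unstimulated CD4 cells of day 5, in which the beta-actin measure was nearest, though without overlap (0.40 to 0.62 and 0.67 to 0.98). More ribosomal protein genes fell than rose. Of the 48, 15 fell and 1 rose, where 10.8% of all genes fell and 9.92% rose (20.7% called in either direction). All but 4 of the 48 had a difference below 0, and their median was -0.25 beside -0.02 over all genes. Of the 42 standard genes 14 fell, 0 rose and 41 were below 0. The large subunit had 7 of 22 down and the small subunit 7 of 20, with medians of -0.31 and -0.21. In bulk RNA fewer cells of a type and less RNA per cell cannot be told apart.

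The deepest falls in CD4 cells came from proteins of both subunits. Rps15, at the head of the small subunit, read 13.21 and 13.09 in unstimulated cells and 11.30, 12.28 and 11.78 in continuous cells, a difference of -1.36 (SE 0.34, limma adjusted p = 0.0114). All 3 continuous arrays lay below both unstimulated ones, a gap between groups that 49.3% of all genes showed in 1 direction or the other. Rpl12, which holds the base of the stalk, read 10.26 and 9.98 against 8.98, 8.91 and 8.16 (-1.44, SE 0.28, limma adjusted p = 0.00235), again without overlap. Rpl37a read 14.04 and 14.10 against 12.67, 13.33 and 13.08 (-1.04, SE 0.26, limma adjusted p = 0.0111). Rps25, a small subunit protein needed by some viral entry sites, read 12.10 and 11.89 against 10.94, 11.18 and 10.96 (-0.97, SE 0.17, limma adjusted p = 0.000997). Both groups were tight here and lay apart.

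The small subunit genes Rps24, Rps19 and Rps10 fell by smaller amounts. Rps24 went from 13.52 and 13.55 to 12.38, 12.83 and 12.56 (-0.95, SE 0.19, limma adjusted p = 0.00357). Rps19 went from 13.58 and 13.60 to 12.87, 12.93 and 12.77 (-0.73, SE 0.15, limma adjusted p = 0.00292). Rps10, whose start is shown above, went from 13.79 and 13.84 to 13.16, 13.36 and 13.25 (-0.56, SE 0.12, limma adjusted p = 0.00505). In none of these did the groups overlap. The large subunit genes Rpl35 (-0.63, SE 0.16) and Rpl38 (-0.60, SE 0.13), both with a pyrimidine start, Rpl8 (-0.45, SE 0.11) and Rpl11 (-0.46, SE 0.14, limma adjusted p = 0.0344) fell as well. Rps14 (-0.47, SE 0.13), Rps29 (-0.43, SE 0.12) and the stalk gene Rplp2 fell too (Rplp2 -0.32, SE 0.10, limma adjusted p = 0.0365).

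Other members of known roles gave no call in CD4 cells. The stalk anchor Rplp0 was 14.12 and 14.17 in unstimulated and 14.03, 14.12 and 14.10 in continuous cells (-0.06, SE 0.09). Rps6, the substrate of S6 kinase, differed by -0.10 (SE 0.15) and Rpsa, the laminin receptor precursor, by -0.02 (SE 0.10). Rpl22, which developing alpha-beta T cells need, differed by -0.14 (SE 0.12), and Rpl39 and Rpl7 by -0.29 (SE 0.12) and -0.33 (SE 0.16).

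Rps27l was the single gene that rose. It encodes a paralogue of RPS27 and is a known p53 target. Its signal was 9.89 and 9.69 in unstimulated and 10.84, 10.99 and 10.88 in continuous CD4 cells (1.11, SE 0.15, limma adjusted p = 0.000211), with a wide gap between the groups. Its partner Rps27 was 7.50 and 7.44 against 7.00, 7.13 and 6.76 (-0.51, SE 0.18, limma adjusted p = 0.0634), which did not pass. Rps27 is read by 1 probe set with a mean of 7.22 over all arrays, near the median over genes of most arrays. The other paralogues did not share the rise of Rps27l. Rpl22l1 fell (-0.56, SE 0.18, limma adjusted p = 0.0405), Rpl39l was at 0.49 (SE 0.54), and Rpl7l1 at -0.09 (SE 0.14).

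With either unstimulated CD4 array left out, 1 array stood for that group. The members' median was then -0.26 (without the first) and -0.25 (without the second), beside -0.02 over all genes in each. Calls grew fewer among the members and among all genes. Rps15, Rpl37a, Rpl35, Rpl8, Rpl11, Rps14, Rps29, Rpl22l1 and Rplp2 lost theirs in both fits and Rps10 without the second, while Rps24, Rps25, Rpl12, Rps19, Rpl38 and Rps27l kept theirs. One fit over all 28 arrays left 3 calls, all lower, where 2.65% of all genes were called.

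CD8 cells that met antigen continuously were compared with transient CD8 cells of day 5, the other comparison in which the beta-actin ranges were nearest (0.31 to 0.56 and 0.66 to 1.02). It shares no array with the CD4 comparison just described. In both, the beta-actin range of continuous cells lay below that of the baseline. The same measure of the Gapdh controls was 1.44 to 1.66 in continuous and 2.16 to 2.24 in unstimulated CD4 cells. It was 1.29 to 1.57 in continuous and 1.83 to 2.00 in transient CD8 cells. The part of these measures in either comparison was not tested. Of the 48 genes 12 fell and 1 rose, where 13.6% of all genes fell and 13.6% rose (27.2% in either direction). The members' median was -0.20 beside -0.05 over all genes, with 39 of 48 below 0. Among the standard genes 12 of 42 fell and 37 were below 0, with 6 of 22 down in the large and 6 of 20 in the small subunit.

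**Figure D2:**
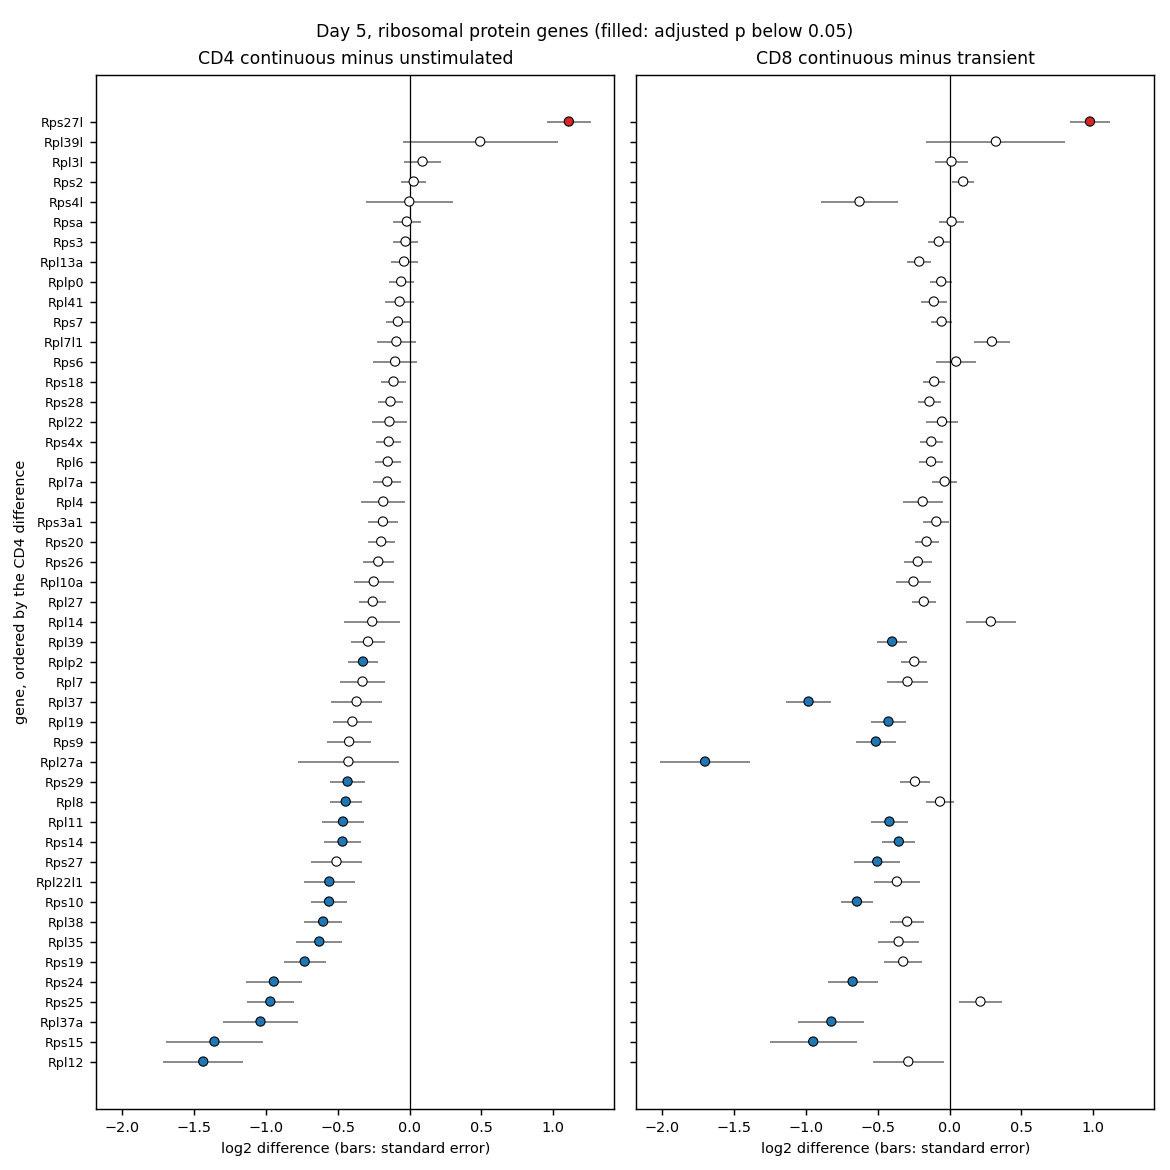
Log2 difference of each of the 48 genes between continuous and unstimulated CD4 cells (left) and between continuous and transient CD8 cells (right) on day 5, with the standard error as bars, ordered by the CD4 value; filled points have an adjusted p below 0.05. Most points lie left of 0 in both panels, Rps27l lies at 1.11 and 0.98, and Rpl27a stands out in CD8 cells at -1.70.

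Rpl27a, a large subunit protein, fell most in CD8 cells. It read 11.36, 11.72 and 10.74 in transient and 9.44, 9.34 and 9.93 in continuous cells (-1.70, SE 0.31, limma adjusted p = 0.00122), with all continuous arrays below all transient ones. Groups lay apart in this way for 41.6% of all genes. Rpl37 read 10.73, 11.49 and 10.86 against 9.92, 10.05 and 10.17 (-0.98, SE 0.16, limma adjusted p = 0.000480), also without overlap. Rps10 went from 13.86, 14.02 and 13.87 to 13.11, 13.20 and 13.51 (-0.65, SE 0.11, limma adjusted p = 0.000693). The third continuous array was the nearest to the transient group for Rps10, and it was so for several others.

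Rps15 shows that array most clearly. It read 13.09, 13.50 and 13.29 in transient cells and 11.94, 11.87 and 13.22 in continuous cells (-0.95, SE 0.30, limma adjusted p = 0.0314), so the third continuous array lay inside the transient range. Rpl37a read 13.94, 14.32 and 14.11 against 12.89, 13.08 and 13.94 (-0.82, SE 0.23, limma adjusted p = 0.0162), and Rps24 13.29, 13.57 and 13.22 against 12.53, 12.43 and 13.10 (-0.68, SE 0.17, limma adjusted p = 0.0102). In both the third array was again the highest of its group. The median of the 48 genes was 13.51, 13.38 and 13.82 on the continuous arrays and 13.88, 14.04 and 13.90 on the transient ones. The third continuous array also had the highest B cell marker mean of its group (6.59, beside 5.90 and 5.37), and the part of this in the result was not tested. Without that array 20 genes were called, 19 of them lower, where 29.3% of all genes were called and 14.6% were lower. Without the first or the second continuous array 4 and 5 were called (19.3% and 20.8% of all genes), and without the third transient array 8 (22.6%). Under these last 3 fits Rps27l, Rpl37, Rpl27a and Rps10 remained called.

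Smaller falls in CD8 cells were those of Rps9 (-0.51, SE 0.14), Rps27 (-0.50, SE 0.16), Rpl19 (-0.43, SE 0.12), Rpl39 (-0.40, SE 0.10) and Rps14 (-0.35, SE 0.12). With the mean over its 3 probe sets Rps9 was at -0.15 and not called, and it lost its call without the first or the second continuous array too. Rpl11 went from 13.40, 13.54 and 13.44 to 13.03, 12.84 and 13.25 (-0.42, SE 0.13, limma adjusted p = 0.0256). The stalk and the other named members gave no call, with Rplp0 at -0.06 (SE 0.08), Rplp2 at -0.25 (SE 0.09, limma adjusted p = 0.0611), Rps6 at 0.05 (SE 0.14), Rpsa at 0.01 (SE 0.09), Rps19 at -0.32 (SE 0.13) and Rpl22 at -0.05 (SE 0.11).

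Rps27l rose in CD8 cells too, from 10.42, 10.83 and 10.31 to 11.56, 11.46 and 11.47 (0.98, SE 0.14, limma adjusted p = 0.000191), and all 3 continuous arrays were above all transient ones. The gene has 3 probe sets, and in a fit of all 20380 probe sets each was called higher in both comparisons, at 1.11, 1.00 and 0.99 in CD4 and 0.98, 0.97 and 0.93 in CD8 cells. Its call was lost in a single fit over all 28 arrays (adjusted p = 0.0565 and 0.0574) and in no other alternative. The other paralogues gave no call, with Rpl22l1 at -0.37 (SE 0.16), Rpl7l1 at 0.29 (SE 0.12) and Rpl39l at 0.32 (SE 0.48).

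The genes Rpl11, Rpl37a, Rps10, Rps14, Rps15 and Rps24 fell in both comparisons. These 6 are 40% of the falls in CD4 and 50% of those in CD8 cells. Over all genes 705 fell in both, which is 52.6% of the falls in CD4 and 41.7% of those in CD8 cells, so these shares of the falls are near those of all genes. As a share of every gene measured, 12.5% of the members fell in both, beside 5.69% of all genes. In all, 39 of the 48 (81.2%) were below 0 in both, beside 38.5% of all genes. Rps27l rose in both, each time against another baseline. Against transient cells its CD4 difference was 0.17 (SE 0.15, limma adjusted p = 0.438), and the CD8 minus CD4 difference of that response was 0.81 (SE 0.21, limma adjusted p = 0.0146). Among all probe sets of these genes, 4 of 6 of Rps10 fell in CD4 and 5 of 6 in CD8 cells, 5 of 6 of Rps24 and 2 of 2 of Rps15 fell in each, 3 of 3 and 2 of 3 of Rpl37a, and 2 of 2 and 1 of 2 of Rps14. Rpl11 has a single probe set. With the mean over probe sets the CD8 falls of Rpl37a (-0.49) and Rps14 (-0.31) lost their call. Over all 100 probe sets of the 48 genes, 33 fell and 3 rose in CD4 cells, where 20.1% of all 20380 probe sets were called, and 32 fell and 6 rose in CD8 cells, where 26.5% were. Over the 102 ribosomal probe sets with several symbols, which the gene list does not use, 34 fell and 0 rose in CD4 cells (10.3% and 9.47% of all probe sets) and 45 fell and 1 rose in CD8 cells (12.3% and 13.7%). Probe sets with several symbols can share sequence, so these are not as many separate measurements.

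The 8 genes with a pyrimidine run at the annotated start included 4 that fell in CD4 continuous cells (Rpl35, Rpl38, Rplp2 and Rps10, median -0.42 over the 8), beside 8 down and 1 up of the 34 annotated without it (median -0.18). In CD8 cells 2 of the 8 fell (Rps10 and Rps27, median -0.27), beside 9 down and 1 up of the 34 (median -0.16). These are counts over few genes and were not tested against each other.

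The CD8 minus CD4 difference of these responses could be tested only against a common baseline. For continuous minus unstimulated, 5 of the 48 genes were higher and 2 lower in the CD8 response (11.3% and 8.46% of all genes, 19.7% in either direction). Without the first or second unstimulated CD4 array 3 and 4 were called, and median centring gave 3 higher and 2 lower. For continuous minus transient, 3 were higher and 4 lower (8.13% and 10.7%, 18.9% in either direction), and 5 higher and 4 lower after quantile normalization (8.91% and 9.73%). Rps25 parted the cell types in the latter, falling in CD4 (-1.18, SE 0.17, limma adjusted p = 0.000106) and at 0.21 in CD8 cells (SE 0.15), a difference of 1.40 (SE 0.22, limma adjusted p = 0.000864). Rpl27a did the opposite, at -0.04 in CD4 cells, a difference of -1.66 (SE 0.47, limma adjusted p = 0.0258). That call was lost in 7 of 18 alternatives, which gave -1.93 to -0.83. Among them were the mean over probe sets (-0.83) and the fits without the second CD4 transient, the first or second CD8 transient, or the first or second CD8 continuous array.

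Day 2 asked what stimulation in culture does to the same genes. Few changed by the test, where the median standard error of a member was 0.36 beside 0.12 to 0.14 on day 5. In CD4 cells 1 of 48 rose and 2 fell (10.7% and 0.718% of all genes, 11.4% in either direction), with a median of -0.12 beside 0.14 over all genes. In CD8 cells 0 rose and 3 fell by limma (7.49% and 0.863%, 8.35% in either direction), beside 2 higher and 6 lower at an unadjusted p below 0.05, with a median of -0.19 beside 0.14. Median centring moved the median of all genes to -0.48 in both cell types. Member calls were then 1 up and 7 down in CD4 cells (17.5% and 30.1% of all genes) and 1 up and 11 down in CD8 cells (15.3% and 24.9%). Quantile normalization gave 2 up and 8 down in CD4 cells (11.3% and 13.6% of all genes), and 2 up and 10 down in CD8 cells (10.2% and 11.4%). No call changed sign under either scaling. The members' medians were -0.74 in CD4 and -0.81 in CD8 cells after median centring. After quantile normalization they were -0.08 and -0.15, beside -0.20 over all genes in each. Without both arrays that stood apart, and with no scaling, they were -0.15 beside -0.31 over all genes in CD4 cells. In CD8 cells they were then -0.22 beside -0.22. The place of the members below all genes was thus not kept there.

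Rpl27a had the largest fall. In CD4 cells it read 13.86, 12.62 and 10.73 unstimulated and 8.78, 8.35 and 8.75 stimulated (-3.78, SE 0.69, limma adjusted p = 0.00408). In CD8 cells it read 11.38, 11.30 and 13.16 against 8.86, 8.93 and 8.78 (-3.09, SE 0.69, limma adjusted p = 0.0149). The stimulated arrays were tight and below every unstimulated one, as groups lay apart for 33.1% of all genes in CD4 and 39.8% in CD8 cells, while the unstimulated arrays spread over several log2 units. Without both arrays that stood apart the differences were -4.62 (SE 0.32) and -2.49 (SE 0.32). The CD8 minus CD4 difference was then 2.13 (SE 0.45, limma adjusted p = 0.0472), the single member called in that comparison, and it was not called once median centring or quantile normalization was added. With every array in it was 0.69 (SE 0.98), and by limma 0 members were called, also 0 at an unadjusted p below 0.05. The mean over all its probe sets lost the CD8 call (limma adjusted p = 0.0674), as did leaving out any 1 stimulated CD8 array.

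Rpl37 fell in both cell types, from 12.25, 12.26 and 11.21 to 10.08, 10.62 and 10.38 in CD4 cells (-1.54, SE 0.41, limma adjusted p = 0.0276) and from 12.02, 11.78 and 12.22 to 9.90, 9.56 and 9.65 in CD8 cells (-2.30, SE 0.41, limma adjusted p = 0.00393). The groups did not overlap in either. The CD4 call was lost when the first or second unstimulated array or any stimulated CD4 array was left out (limma adjusted p up to 0.138). Rpl37a fell in CD8 cells (-1.31, SE 0.36, limma adjusted p = 0.0407), a call lost without any 1 of the 6 CD8 arrays, and was at -0.85 in CD4 cells. Rpl7l1, a nucleolar relative of Rpl7, rose in CD4 cells from 8.11, 9.71 and 7.34 to 10.78, 10.44 and 11.11 (2.39, SE 0.70, limma adjusted p = 0.0422) and was at 2.08 in CD8 cells (SE 0.70, limma adjusted p = 0.0839). Rpl7 itself was at -0.15 and -0.16. The CD4 call of Rpl7l1 was lost without the first or the third unstimulated or any stimulated CD4 array. In counts, the CD4 calls were 1 without the first unstimulated (8.09% of all genes) or any stimulated CD4 array (4.57% to 5.55%). They were 5 without the third unstimulated one (26.5%). The CD8 calls were 1 without any stimulated CD8 array (3.12% to 3.53%).

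The remaining named genes gave no call on day 2 with all arrays. Rplp0 was at 0.46 (SE 0.48) in CD4 and 0.68 (SE 0.48) in CD8 cells, Rps6 at 1.35 (SE 0.67) and 1.05 (SE 0.67), Rps27l at 0.58 (SE 0.43) and 0.64 (SE 0.43), Rps27 at -0.65 and -0.52, and Rpl11 at -0.33 (SE 0.35) and -0.84 (SE 0.35). Rplp2, Rpl22, Rpl22l1, Rpl39, Rps19 and Rpsa lay between -0.40 and 0.12 in both, and Rpl39l at 0.52 and 0.45 (SE 0.75). In CD8 cells the third unstimulated array held Rplp0 at 12.27, beside 14.10 and 14.01 on the others, and Rps6 at 8.16, beside 10.97 and 10.78. Without both arrays that stood apart 7 genes rose and 13 fell in CD4 cells, where 26.2% and 39.4% of all genes did, and 2 rose and 14 fell in CD8 cells (16.5% and 21.4%). Rplp0 and Rps6 were then called higher in CD4 cells (0.57, SE 0.16, and 1.15, SE 0.40), and Rpl11, Rpl22 and Rpl22l1 lower in CD8 cells (-0.93, -0.45 and -0.53), each by its brightest probe set. Unstimulated arrays had the higher beta-actin measure here, and its part in the day 2 results was not tested.

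**Figure D3:**
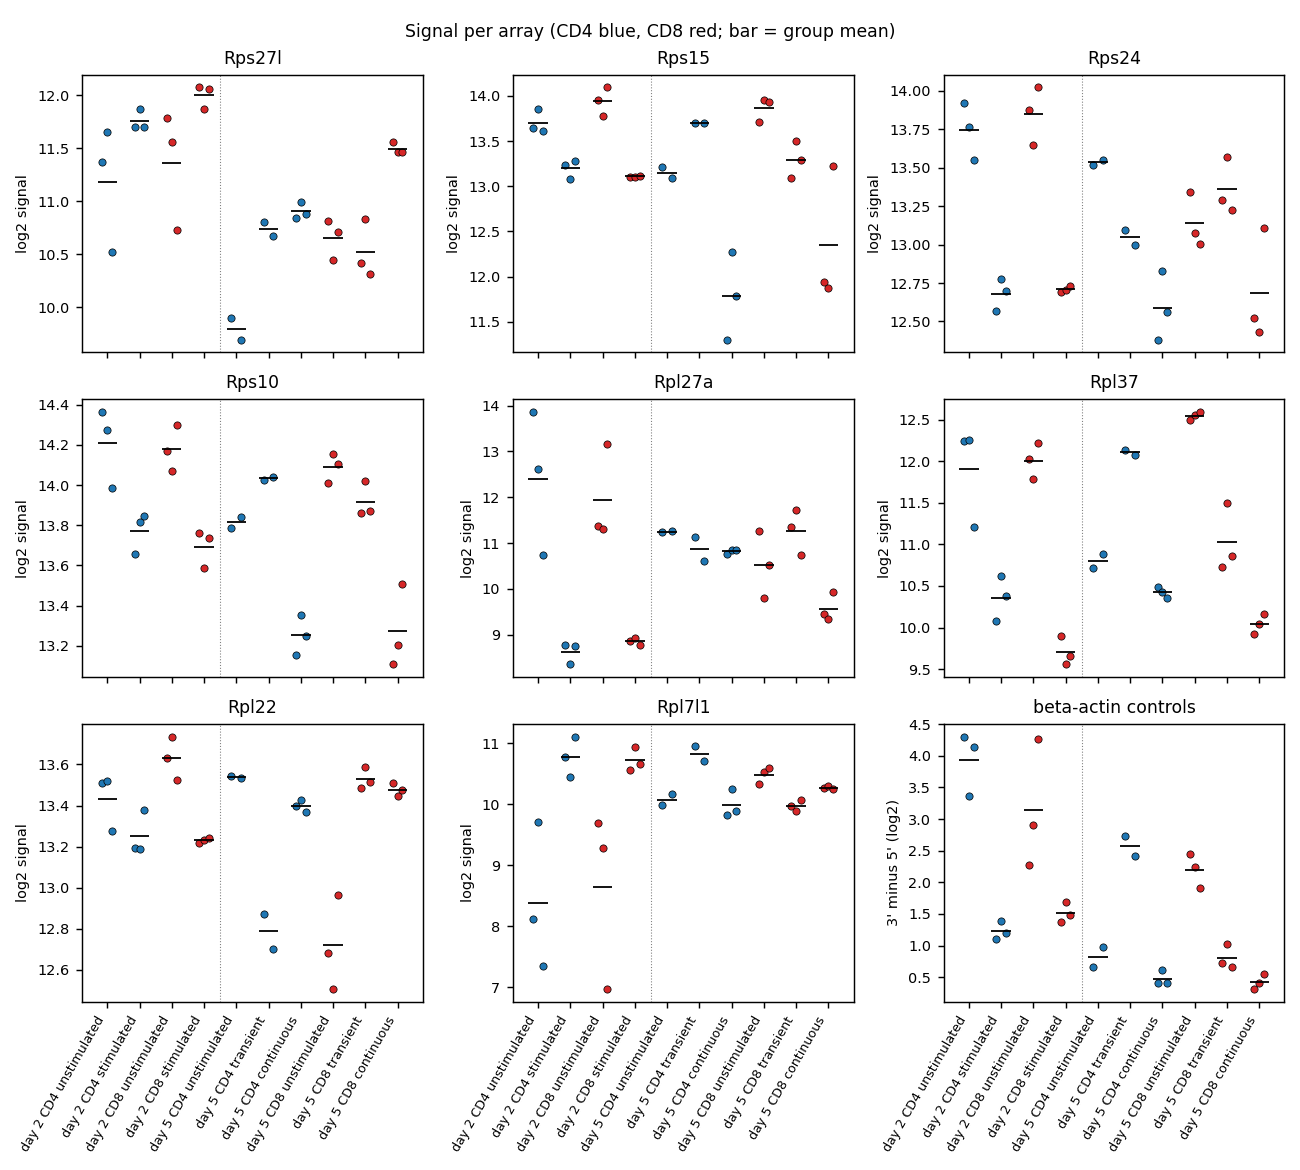
Log2 signal of 8 ribosomal protein genes on each array (points, CD4 blue and CD8 red; bars are group means; the dotted line parts day 2 from day 5) and, in the last panel, the beta-actin 3′ minus 5′ difference in log2 units. Rpl37 is highest in the groups with a high beta-actin difference, and Rps27l is lowest in CD4 unstimulated cells of day 5.

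Transient cells asked what 3 days without antigen leave behind. In CD4 cells 3 of the 48 genes were higher and 7 lower than in unstimulated cells (9.66% and 13.1% of all genes, 22.8% in either direction). In CD8 cells 8 were higher and 6 lower (16.3% and 15.5%, 31.8% in either direction). The members' medians were -0.11 and 0.00. The CD4 calls were 6 without the first or second unstimulated or the second transient array, and median centring moved the CD8 split to 5 higher and 6 lower. In total 8 of the 48 were called in both cell types, and each in opposite directions. The same held for 1715 of the 1824 genes called in both over the whole array (94%).

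Rpl37 was the clearest of these. CD4 cells had 10.71 and 10.88 unstimulated and 12.14 and 12.08 transient (1.31, SE 0.19, limma adjusted p = 0.000330). CD8 cells had 12.50, 12.55 and 12.59 unstimulated and 10.73, 11.49 and 10.86 transient (-1.52, SE 0.16, limma adjusted p = 1.08e-05). The CD4 transient and the CD8 unstimulated arrays were the high ones, and these are the groups with the high beta-actin measure. Groups lay apart for 62.5% of all genes in CD4 and 43.2% in CD8 cells.

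Rpl22 mirrored this pattern. It was 13.54 and 13.53 in unstimulated and 12.87 and 12.70 in transient CD4 cells (-0.75, SE 0.13, limma adjusted p = 0.00128), and 12.68, 12.51 and 12.97 against 13.49, 13.59 and 13.52 in CD8 cells (0.81, SE 0.11, limma adjusted p = 8.63e-05). Here the same groups were the low ones. With the mean over its 2 probe sets the CD8 value was 0.39 and still called. Its paralogue Rpl22l1 moved with it and not against it, by -0.75 (SE 0.20) in CD4 and 0.49 (SE 0.16) in CD8 cells. Rps27 differed by -1.08 (SE 0.20) and 1.12 (SE 0.16), Rps3a1 by -0.47 and 0.39, Rplp2 by -0.40 and 0.36, and Rpl13a by -0.38 and 0.29. No call was given by Rplp0 (-0.15 and 0.08), Rpl39 (-0.30 and 0.06), Rpl7 (-0.21 and 0.29), Rps6 (-0.28 and -0.18) and Rps19 (-0.14 and -0.27), and Rpl11 (-0.45 and 0.27), Rpl39l (0.06 and 0.36) and Rpsa in CD4 cells (-0.23) likewise gave no call. Rpl7l1 had the sign of Rpl37, with 0.76 (SE 0.15) and -0.51 (SE 0.12).

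Other genes were called in CD4 or CD8 cells alone. Rpl12 fell (-1.27, SE 0.30) and Rps27l rose in CD4 cells, from 9.89 and 9.69 to 10.80 and 10.67 (0.94, SE 0.17, limma adjusted p = 0.00134). In CD8 cells Rps27l was at -0.14, and the difference between the cell types was -1.08 (SE 0.22, limma adjusted p = 0.00150). Rps25 fell in CD8 cells from 12.77, 12.79 and 12.86 to 11.20, 11.64 and 11.69 (-1.30, SE 0.15, limma adjusted p = 2.45e-05), and Rpl14 fell (-0.88, SE 0.17), as did Rpl3l, the muscle relative of Rpl3 (-0.55, SE 0.12). Rpl3l is near the lower end of the scale, with a mean of 4.07 over all arrays. It was not tested when the lowest 30% of genes were left out. Rpl41 and Rpsa rose by 0.33 and 0.26 on the log2 scale, but with the mean over all probe sets of a gene both turned negative (-0.26 and -0.11), and separate probe sets of Rpsa were called in opposite directions. By the CD8 minus CD4 difference 13 genes were higher and 7 lower (18.5% and 18.9% of all genes, 37.5% in either direction), 9 and 8 after quantile normalization, and 7 and 6 without the second CD4 transient array. The beta-actin measure rose with the transient state in CD4 cells and fell with it in CD8 cells. The B cell markers were highest on the CD4 transient arrays, and the CD4 helper markers were lower there than on the other CD4 arrays of day 5. The part of any of these in the values was not tested.

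The remaining comparisons cross a wider gap in the beta-actin measure than those of continuous with unstimulated CD4 and with transient CD8 cells. Continuous against transient CD4 cells gave 4 higher and 11 lower genes (17.6% and 16.5% of all genes, 34.1% in either direction), and continuous against unstimulated CD8 cells 5 higher and 18 lower (21.4% and 25.9%, 47.3% in either direction). Groups lay apart for 56.6% and 55.1% of all genes, and 9 genes were called in the first without the first transient array. Rps15 fell from 13.70 and 13.70 to 11.30, 12.28 and 11.78 in the first (-1.91, SE 0.34, limma adjusted p = 0.000640), and the second gave -1.52 (SE 0.30). Rpl37 fell in both (-1.68, SE 0.18, and -2.50, SE 0.16), as did Rps25 (-1.18, SE 0.17, and -1.08, SE 0.15) and Rps10 (-0.78, SE 0.12, and -0.82, SE 0.11). Rpl7l1 fell in CD4 cells (-0.85, SE 0.14) and Rpl27a in CD8 cells (-0.96, SE 0.31), the latter with overlapping groups. Rpl22 and Rps27 were higher in both, by 0.61 and 0.57 in CD4 and by 0.76 and 0.62 in CD8 cells, and so were Rpl13a (0.34) and Rps3a1 (0.29) in CD4 and Rps27l (0.84), Rps3a1 (0.30) and Rpsa (0.28) in CD8 cells. With the mean over probe sets the CD8 values of Rpl22 (0.14, limma adjusted p = 0.325) and Rpsa (0.087) lost their call. Among the other named genes Rps19 fell in both (-0.59 in each) and Rpl39 in CD8 cells (-0.34). Rplp0 (0.09 and 0.02), Rplp2 (0.08 and 0.11), Rpl11 (-0.02 and -0.15), Rpl22l1 (0.19 and 0.13), Rpl7 (-0.12 and 0.00), Rpl39l (0.43 and 0.68) and Rps6 (0.18 and -0.14) gave no call in either. These comparisons share arrays with those above and are given side by side only.

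The spread of a gene over the arrays differed with its place on the scale. Between 26 and 35 of the 48 genes lay above the 99th percentile of their array. The 20 genes with a mean above 14 had a median SD of 0.17 over all arrays (0.08 to 0.34), the 14 between 13 and 14 one of 0.33, the 9 between 8 and 13 one of 0.84, and the 5 below 8 one of 0.55. Rpl27a, Rpl37, Rps25, Rpl12 and Rpl14 are in the set between 8 and 13. The set below 8 holds Rps27, Rpl39, Rpl39l, Rpl3l and Rps4l. These SDs include the day 2 arrays that stood apart, where Rps6 (8.16) and Rplp0 (12.27) had their lowest values. The spread without those arrays was not computed. Signals near the top of the scale can be compressed, so a small difference there is no measure of a small change in mRNA.

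**Figure D4:**
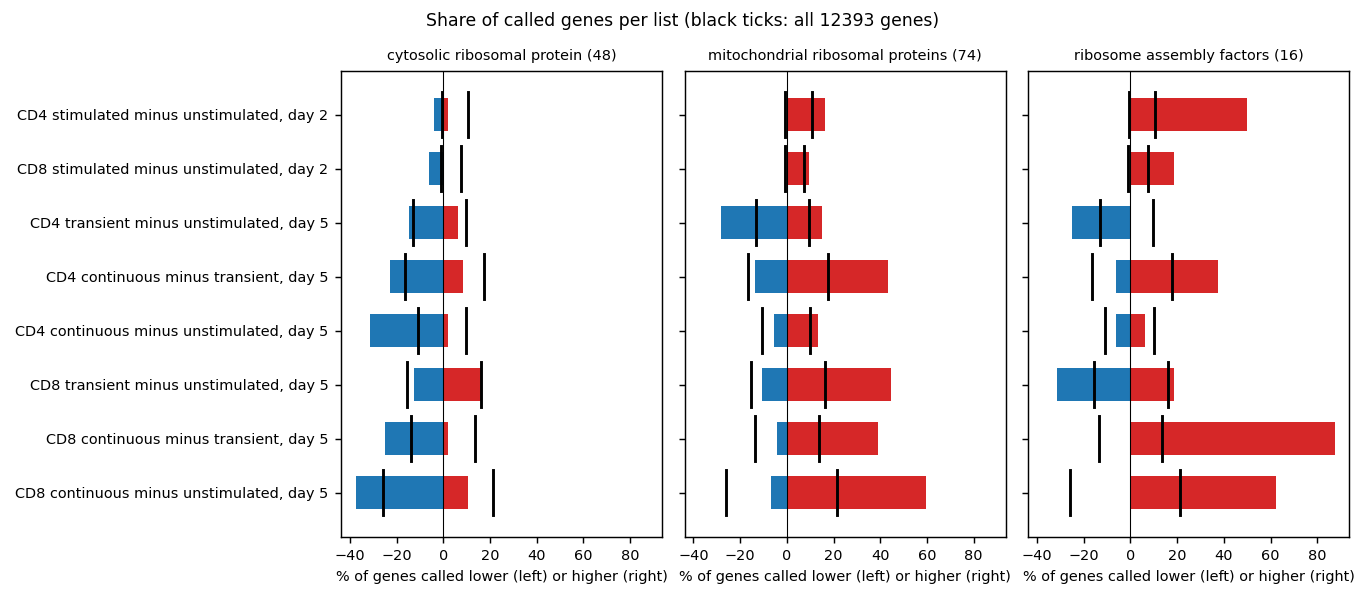
Share of genes called higher (red, right) and lower (blue, left) in 8 comparisons for the 48 cytosolic ribosomal protein genes, 74 mitochondrial ribosomal protein genes and 16 ribosome assembly factors, with the share over all 12393 genes as black ticks. Cytosolic genes extend furthest to the left in both comparisons of continuous with unstimulated cells, and the assembly factors reach 87.5% called higher in continuous against transient CD8 cells.

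Other genes of ribosome production and use are given beside the members. Of 16 measured assembly factors, which build subunits in the nucleolus, 14 rose and 0 fell in continuous against transient CD8 cells (median 0.95). Over all genes 13.6% rose and 13.6% fell there. Nop58 rose by 1.77 (SE 0.27), Fbl, the rRNA methyltransferase fibrillarin, by 1.39 (SE 0.14) and Ncl, nucleolin, by 0.87 (SE 0.13, limma adjusted p = 0.000302). In continuous against unstimulated CD4 cells 1 rose and 1 fell (9.92% and 10.8% of all genes, median -0.19). These baselines differ. Continuous against transient CD4 cells had 6 higher and 1 lower (17.6% and 16.5% of all genes, median 0.10). Continuous against unstimulated CD8 cells had 10 higher and 0 lower (21.4% and 25.9%, median 0.66). On day 2 all 16 were above 0 in both cell types (medians 2.40 and 2.03, beside 0.14 and 0.14 over all genes). There 8 were called higher in CD4 and 3 in CD8 cells (10.7% and 7.49% of all genes). Ncl was then at 4.17 (SE 0.83) in CD4 cells. These day 2 values of the assembly factors include the arrays that stood apart and are not given without them. Leaving those arrays out moved the median over all genes to -0.31 in CD4 and -0.22 in CD8 cells.

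Of 74 mitochondrial ribosomal protein genes 29 rose and 3 fell in continuous against transient CD8 cells, and 10 rose and 4 fell in continuous against unstimulated CD4 cells, with medians of 0.32 and 0.14. Over all genes 13.6% rose and 13.6% fell in the former comparison, and 9.92% rose and 10.8% fell in the latter. In either direction 43.2% and 18.9% of the mitochondrial genes were called, beside 27.2% and 20.7% of all genes. Among 18 measured translation factors and related genes 4 rose and 2 fell in the former and 1 rose and 2 fell in the latter (33.3% and 16.7% called). Of 11 genes of the mTOR pathway and the S6 kinases 1 rose and 3 fell, and 1 rose and 2 fell (36.4% and 27.3% called). Eif4ebp1, a brake on translation that mTOR releases, was the CD4 rise (0.98, SE 0.28, limma adjusted p = 0.0246). Fau, which encodes RPS30 and falls outside the symbol rule, fell in both (-0.62, SE 0.17, limma adjusted p = 0.0187, in CD4, and -0.73, SE 0.15, limma adjusted p = 0.00263, in CD8 cells).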

How the data were processed

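The deposited values are log2 signals per probe set, made by the authors with RMA per the submitters' processing notes, in a version not given in the sources used here. They were used as deposited, with no scaling added and no scanner file read. Probe sets were named from the platform annotation. Of 22690, 64 controls, 691 with several symbols and 1555 with none were left out, which leaves 20380 for 12393 genes. Each day was fitted apart with limma 3.58.1 in R 4.3.3 (12 arrays with 8 residual degrees of freedom on day 2, 16 with 10 on day 5), as group means with moderated variances and two-sided tests adjusted by Benjamini-Hochberg. Members and lists were chosen with earlier results of these data known, and the genes named are a set of fixed roles and the 4 largest rises and falls among calls of each comparison, with further called members added for completeness. The number of arrays limits the precision, and on day 2 so does the spread brought by the arrays that stood apart. In a simulation of the 12393 genes, 100 altered at each size, the CD4 comparison of day 2 called 0% of changes of 1 and 53% of changes of 3 log2 units, and continuous against unstimulated CD4 cells 76% and 99%. It drew each gene independently, and its day 2 spreads include the arrays that stood apart. Its day 2 shares therefore do not describe the fit without them, which called 20 members in CD4 and 16 in CD8 cells, beside 3 in each. Promoter windows are RefSeq's, and the array files name no genome build.

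Same-numbered replicates correlated in their deviations at 0.50, 0.36 and 0.15 in transient against unstimulated CD8 cells, the only comparison with 3 pairs all above 0.1. In continuous against unstimulated CD4 cells, where only the first and second arrays can be paired, it was 0.42 and 0.28. A fit with the replicate number as a block gave 17 member calls there, beside 16. The numbers are in the labels, which do not say what they share.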

Additional observations from a re-analysis of the deposited data

Results flagged for a closer look

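The results here are the ribosomal protein genes whose response differed between CD8 and CD4 cells by limma (contrast of both contrasts, adjusted over 12393 genes). Each value is the CD8 minus the CD4 log2 difference.

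For transient minus unstimulated cells on day 5, Rps27 (2.20), Rpl22 (1.56), Rpl12 (1.45), Rpl22l1 (1.25), Rps3a1 (0.86), Rplp2 (0.76), Rpl11 (0.71), Rpl13a (0.67), Rps9 (0.66), Rpl41 (0.61), Rpsa (0.49), Rps4x (0.38) and Rps18 (0.37) were higher in the CD8 response. Rpl37 (-2.83), Rps25 (-1.51), Rpl7l1 (-1.26), Rps27l (-1.08), Rpl14 (-0.92), Rpl3l (-0.82) and Rps26 (-0.51) were lower. The largest, Rpl37, had an SE of 0.25 and an adjusted p of 1.63e-06. Separate probe sets of Rps4x, Rps9 and Rpsa were called in opposite directions here. The beta-actin measure was higher in transient than in unstimulated CD4 cells and lower in transient than in unstimulated CD8 cells, and its part was not tested.

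For continuous minus transient cells, Rps25 (1.40), Rpl7l1 (1.14) and Rps27l (0.81) were higher, and Rpl27a (-1.66), Rps27 (-1.07), Rpl22 (-0.66) and Rpl13a (-0.55) lower in the CD8 response.

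For continuous minus unstimulated cells, Rpl12 (1.33), Rps27 (1.13), Rpl22 (0.90), Rps3a1 (0.48) and Rplp2 (0.44) were higher, and Rpl37 (-2.13) and Rpl3l (-0.63) lower in the CD8 response. These comparisons share arrays, so the lists are not independent of each other. With the mean over all probe sets of a gene, the calls of Rpl41, Rps18, Rps9 and Rpsa (-0.063) for transient minus unstimulated cells were lost. Rps4x was then called in the opposite direction (-0.50, limma adjusted p = 0.0422). The calls of Rpl27a for continuous minus transient and of Rpl22 for continuous minus unstimulated cells were lost as well. Rpl3l (mean 4.07 over all arrays) and Rps27 (mean 7.22) have 1 probe set each and low signals beside most members.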

How the results depend on the processing

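Of 3708 values of single genes under the alternatives, 3297 kept their side of the threshold, 347 lost a call, 60 gained one and 4 turned sign, all 4 with the mean over all probe sets of a gene: in transient minus unstimulated CD8 cells Rpl41 (-0.26) and Rpsa (-0.11), and in the CD8 minus CD4 difference of that response Rps4x (-0.50) and Rpsa (-0.063). The cause of each change below was not tested.

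Counts of called members that moved by more than 1.5 times were these. On day 2 quantile normalization gave 10 in CD4 and 12 in CD8 cells (3 each in the main result), median centring 8 and 12, trend and robust moderation 6 and 6, and 1 fit over all 28 arrays 8 and 11. In the same order 25% and 21.6%, 47.6% and 40.2%, 12.2% and 9.28%, and 29.6% and 27.4% of all genes were called. The mean over all probe sets gave 1 in CD8 cells. Without both arrays that stood apart there were 20, 16 and, for the difference, 1 (0 by limma with every array, and 0 at an unadjusted p below 0.05), and with median centring or quantile normalization added after the data were seen 22 or 17 in CD4 and 22 or 11 in CD8 cells and 0 or 0 for the difference. On day 5 the fit over all 28 arrays gave 0 for CD4 transient minus unstimulated (10), 4 for CD4 continuous minus transient (15), 3 for CD4 continuous minus unstimulated (16), 2 for CD8 transient minus unstimulated (14), 1 for CD8 continuous minus transient (13) and 4 for CD8 continuous minus unstimulated (23). For the CD8 minus CD4 differences of transient minus unstimulated, continuous minus transient and continuous minus unstimulated it gave 3 (20), 0 (7) and 1 (7). Over all genes it called, in the same order, 0.702%, 4.99%, 2.65%, 1.93%, 2.9% and 8.75%, and for the differences 4.24%, 0.178% and 0.137%.

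Leaving out 1 array gave 1 to 5 and 1 to 3 in CD4 and CD8 cells on day 2, and, in the order above, 6 to 8, 9 to 16, 6 to 16, 10 to 13, 4 to 20 and 17 to 25 on day 5. For the differences it gave 13 to 21, 5 to 10 and 3 to 7, and 0 on day 2. Where a group was left with 1 array, that array is assumed to vary like the others.

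The replicate block gave 3 and 3 on day 2, 10, 14, 17, 13, 13 and 22 on day 5 and 20, 7 and 7 for its differences. It ended the calls of Rps3a1 in CD4 continuous minus transient, Rpl22l1 in CD4 continuous minus unstimulated, Rpl8 in CD8 transient minus unstimulated and Rps24 in CD8 continuous minus unstimulated cells. In CD4 transient minus unstimulated cells, where same-numbered arrays correlated at -0.21, crossing the numbers, a pairing added after the data were seen, gave 10 calls, as did the numbers as labelled.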
